A study of Mus musculus with 2 samples.

Results

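The mitochondrial ribosome makes the proteins that the mitochondrial genome encodes, which are core subunits of the respiratory chain. Its RNAs come from mitochondrial DNA, while all of its proteins are encoded in the nucleus, made in the cytosol and imported. Proteins named Mrpl belong to the large subunit, where peptide bonds form, and proteins named Mrps mostly to the small subunit, where the message is decoded. Many have a counterpart in bacterial ribosomes, and the others are mitochondrial additions that replaced much of the ribosomal RNA. In T cells, activation is known to bring mitochondrial growth and a higher demand for mitochondrial translation.

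Mitochondrial ribosomal protein genes were followed in single CD4+ CD25+ cells, the sort that enriches regulatory T (Treg) cells, from lymph node and spleen. The members were all genes whose symbol starts with Mrpl or Mrps followed by a digit, with pseudogene symbols left out. There were 78 of them among 31056 rows, 49 named Mrpl and 29 named Mrps, and none was chosen for its level. Mrps30 and Mrps18a carry small subunit names, but their proteins are known to sit in the large subunit, and the product of Mrps36 has been reassigned to the 2-oxoglutarate dehydrogenase complex. They are kept with their names here.

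All cells came from healthy female Mycfl/flFoxp3Cre/WT mice, whose age and number the labels do not state. Every cell therefore carries floxed Myc, and Cre is made from 1 of the 2 copies of the X-linked Foxp3 gene, so only Foxp3-expressing cells that use that X chromosome can delete Myc. YFP+ and YFP- cells were loaded together, 1 droplet lane for lymph node and 1 for spleen, and the YFP status and animal of a cell are not given. With 1 library per tissue there are no replicates and no test, and all intervals are 95% intervals of counting error only.

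The lymph node library kept 4820 cells and 13053739 unique molecular identifiers (UMIs, 1 per captured RNA molecule), with a median of 2031 per cell. The spleen library kept 6543 cells and 16641089 UMIs, with a median of 1935. Levels are UMIs of a gene scaled to 1000000 UMIs of the summed cells (CPM). Each captured molecule gives 1 tag at its 3′ end whatever its length, so CPM can be set side by side between genes, although capture may differ between 3′ ends. The 9 T cell markers summed to 9758 CPM in lymph node and 9780 CPM in spleen. Markers of other cells were also present. The 13 B cell markers summed to 1957 and 1669 CPM, the 2 CD8 markers to 38.0 and 42.4 CPM, the 8 natural killer cell markers to 54.5 and 34.2 CPM, and the 11 myeloid markers to 160 and 192 CPM, with 3 and 4 of the 11 at 0. The 7 erythroid markers, mostly haemoglobin, summed to 333 CPM in lymph node and 4.39 CPM in spleen. Some ratios below are also given without cells holding other cell types' markers. Such a cell had at least 1 UMI of a marker, or at least 3 UMIs of Igkc, Cd74, Hbb-bs, Hbb-bt, Hba-a1 or Hba-a2. Cells with fewer UMIs of these last genes stayed in. The libraries shared 45 kept barcodes.

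The promoters of 4 members that recur in the results are shown with the motifs found in them. Mrpl52 had the highest level, Mrpl12 differed in the Myc, ICRE and Tnfrsf9 comparisons, Mrps6 differed most in cells with Tnfrsf9, and Mrpl37 was among the members named for the Myc comparison and held an E-box. Each is 300 bases, 250 before and 50 after the RefSeq start on GRCm38.p6, 5′ to 3′ on the gene's own strand, and capitals mark the motifs. Mrpl52 is at chr14:54426659-54426958 (plus strand), Mrpl12 at chr11:120484387-120484686 (plus strand), Mrps6 at chr16:92058086-92058385 (plus strand) and Mrpl37 at chr4:107066817-107067116 (minus strand).
Mrpl52: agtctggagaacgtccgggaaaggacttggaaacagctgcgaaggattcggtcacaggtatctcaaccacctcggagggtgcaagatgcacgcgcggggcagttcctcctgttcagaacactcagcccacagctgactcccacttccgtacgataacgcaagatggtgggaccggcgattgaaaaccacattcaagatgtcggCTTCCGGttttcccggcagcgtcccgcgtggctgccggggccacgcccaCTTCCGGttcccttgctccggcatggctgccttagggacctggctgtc
Mrpl12: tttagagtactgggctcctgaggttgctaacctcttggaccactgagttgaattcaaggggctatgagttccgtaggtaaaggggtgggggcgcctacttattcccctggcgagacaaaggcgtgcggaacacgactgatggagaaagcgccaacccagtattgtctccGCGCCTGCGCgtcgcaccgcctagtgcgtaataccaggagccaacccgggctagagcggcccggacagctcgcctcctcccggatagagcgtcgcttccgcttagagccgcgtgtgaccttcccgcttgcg
Mrps6: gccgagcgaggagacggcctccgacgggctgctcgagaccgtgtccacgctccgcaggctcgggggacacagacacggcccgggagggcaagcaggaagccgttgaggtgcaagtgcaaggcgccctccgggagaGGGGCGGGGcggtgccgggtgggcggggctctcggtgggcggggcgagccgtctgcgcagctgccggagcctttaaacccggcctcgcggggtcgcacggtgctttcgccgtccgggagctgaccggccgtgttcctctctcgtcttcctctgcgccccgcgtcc
Mrpl37: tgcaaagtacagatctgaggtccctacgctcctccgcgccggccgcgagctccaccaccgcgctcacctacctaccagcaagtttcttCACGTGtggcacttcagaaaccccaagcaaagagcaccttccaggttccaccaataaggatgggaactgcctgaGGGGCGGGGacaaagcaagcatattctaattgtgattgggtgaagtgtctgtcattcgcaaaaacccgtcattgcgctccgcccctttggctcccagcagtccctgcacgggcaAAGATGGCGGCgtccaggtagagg

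The Mrpl52 window held the ETS motif CCGGAAG in its reverse form CTTCCGG at 2 places, the first 47 bases before the start. The Mrpl12 window held the NRF1 motif (GCGC, any base, TGCGC), 81 bases before the start. NRF1 is a transcription factor known for nuclear genes of mitochondrial proteins. The Mrps6 window held the Sp1 motif GGGGCGGGG, 115 bases before the start. The Mrpl37 window held the E-box CACGTG, the Sp1 motif and the YY1 motif (AA, any base, ATGGCG, any base, C), of which the YY1 match began 26 bases after the start.

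RefSeq gave promoters for 69 of the 78 members, and 6 motifs were searched on both strands. ETS was found in 26 members, 37.7%, against 26.3% of the 4046 genes with a mean of at least 20 CPM here and 9.93% of all 27025 genes. NRF1 was in 18.8% of members, 14.9% of expressed genes and 5.19% of all genes. YY1 was in 11.6%, 5.46% and 1.77%. The E-box, the motif bound by Myc and Max, was in 5 members, 7.25%, against 13.0% of expressed genes and 8.09% of all genes. Those 5 were Mrpl2, Mrpl20, Mrpl36, Mrpl37 and Mrps18c. Of these 5, only Mrpl37 has its Myc ratio printed below. Whether an E-box goes with the Myc ratio of a member was not tested. The Sp1 motif was in 18.8%, 25.0% and 12.9%, and the CRE motif TGACGTCA in 2.90%, 4.03% and 2.03%. A match is a description of these letters, and none of these shares was tested.

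Mitochondrial ribosomal protein transcripts were a small and even part of the RNA of these cells, with nearly the same sum in both tissues. They made up 0.575% of UMIs in lymph node and 0.581% in spleen. Summed over the 78 members, lymph node had 5751 CPM (interval 5710 to 5792) and spleen 5808 CPM (interval 5771 to 5845), a lymph node over spleen ratio of 0.990 (interval 0.981 to 0.9996). That ratio was 1.002 when the total left out mitochondrially encoded and cytosolic ribosomal protein genes, so no direction is given to it. The 49 Mrpl genes summed to 3688 CPM in lymph node and 3698 CPM in spleen (ratio 0.997, interval 0.985 to 1.01). The 29 Mrps genes summed to 2063 and 2110 CPM (ratio 0.978, interval 0.963 to 0.994). The other total multiplies every ratio between tissues by the same factor, so no direction is given to the Mrps ratio either. The 46 members with a bacterial counterpart held 3619 and 3669 CPM, and the 32 without one 2132 and 2139 CPM.

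Single members spanned a wide range. Mrpl52, a large subunit protein without a bacterial counterpart, was the highest, at 347.6 CPM in lymph node and 338.6 CPM in spleen. Next came Mrps21, Mrpl33, Mrpl23 and Mrpl30, all counterparts of bacterial proteins. Mrps21 and Mrpl33 were at 209 and 213 CPM in lymph node and at 204 and 199 CPM in spleen, and these neighbours did not differ beyond their counting intervals. Mrpl23, beside the exit of the peptide tunnel, had 179 and 194 CPM, and Mrpl30 had 171 and 184 CPM. Mrps14, Mrps16, Mrps24, Mrps33 and Mrpl18 completed the highest 10, between 128 and 184 CPM. These 10 genes held 32.8% of member UMIs in lymph node and 32.6% in spleen.

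At the low end, Mrpl53 had 2.91 CPM in lymph node and 1.68 CPM in spleen. No member was at 0. A mean of at least 20 CPM over the libraries, used below for counts of members, was reached by 71 members, 46 Mrpl and 25 Mrps. Mrpl37, at 20.3 and 19.5 CPM, lay just outside it, and Mrpl1, at 26.9 and 25.5 CPM, was just inside. The others below it were Mrps31, Mrps22, Mrpl47, Mrps27, Mrps2 and Mrpl53. Of the 3 Mrps18 paralogs, Mrps18c was at 96.4 and 95.2 CPM, Mrps18a at 60.8 and 64.0 CPM, and Mrps18b at 35.2 and 34.3 CPM. Their order was thus the same in both tissues, with gaps larger than the counting intervals.

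**Figure D1:**
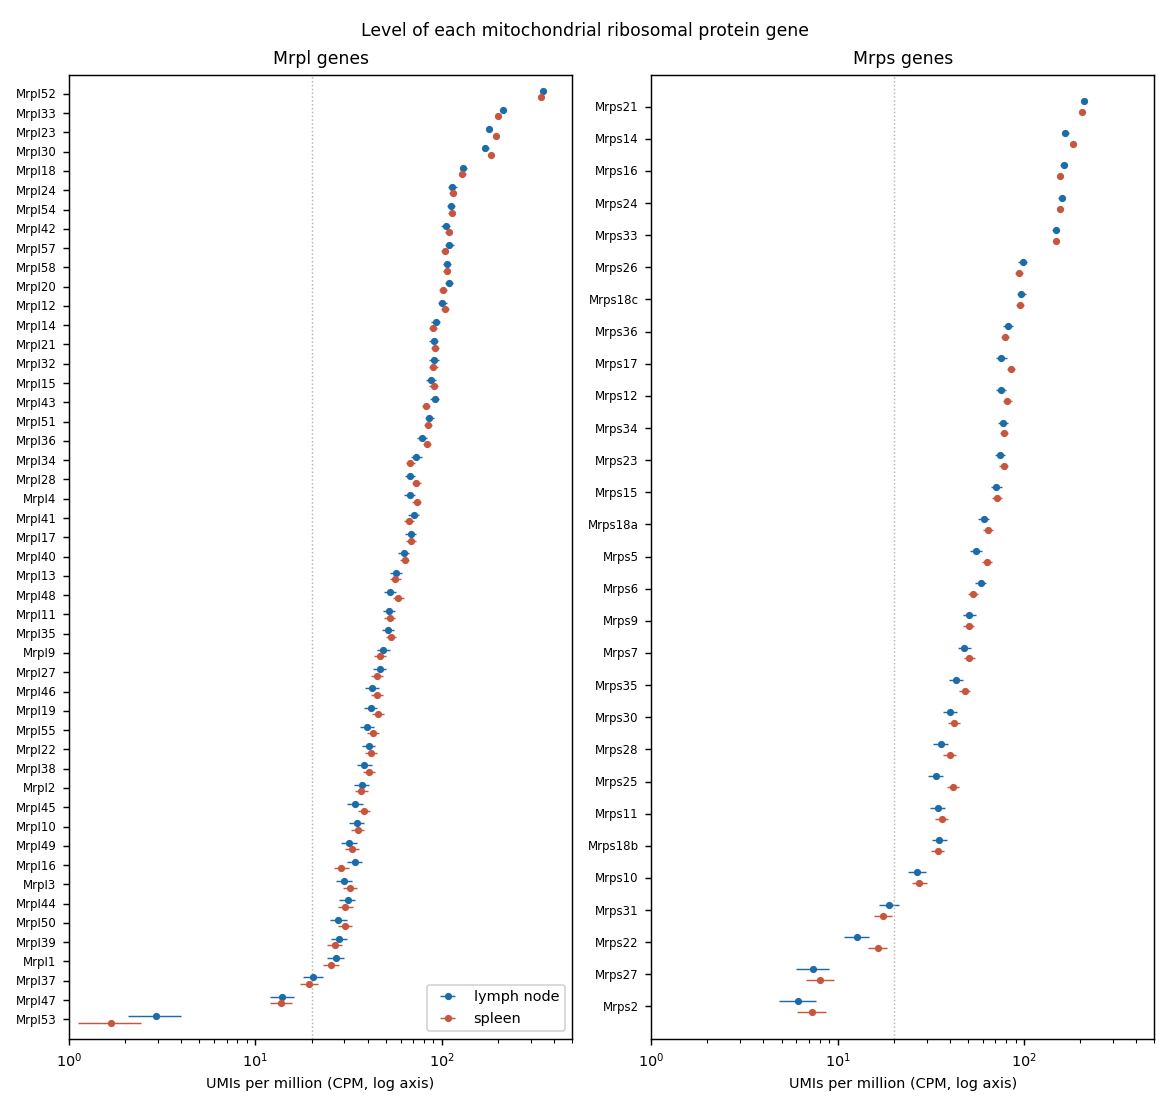
Level of each of the 78 members in CPM (log axis), Mrpl genes left and Mrps genes right, in the lymph node library (blue) and the spleen library (red). Points are summed levels, bars are 95% intervals of counting error, and the dotted line is the 20 CPM minimum; the libraries lie close together along a range from 1.68 to 347.6 CPM.

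Between tissues the members stayed close to equality. No member of the 71 was past 1.5-fold in either direction, where 0.872% of the 5048 genes tested were past it toward lymph node and 0.713% toward spleen. The ratio was above 1 for 29 of 71 members, against 44.7% of all genes, and the median log2 ratio was -0.02 for the members and -0.02 for all genes. The interval of 4 of the 71 members lay above 1, 5.63%, against 15% of all genes. That of 7 members lay below it, 9.86%, against 19.9% of all genes, and 4 of the 7 were Mrps genes. Mrpl16, which lines the tRNA path of the large subunit, was at 34.0 CPM in lymph node and 28.9 CPM in spleen (ratio 1.18, interval 1.03 to 1.34). Mrpl43, a mitochondrial addition, was at 91.5 and 82.2 CPM (ratio 1.11, interval 1.03 to 1.20). Mrps25, a mitochondrial addition to the small subunit, was at 33.6 CPM in lymph node and 41.4 CPM in spleen (ratio 0.812, interval 0.719 to 0.917). Mrps22, a further small subunit addition, was at 12.7 and 16.4 CPM (ratio 0.775, interval 0.635 to 0.944). Mrpl33 (1.07) and Mrpl20 (1.08) were the others above 1, and Mrps14 (0.907), Mrps5 (0.873), Mrps17 (0.889) and Mrpl23 (0.925) lay among the others below. Mrps22 is not among the 71. Without the cells holding other cell types' markers, Mrps5 had a ratio of 1.004.

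Most cells carried several of these transcripts. At an equal depth of 1200 UMIs per cell, reached by 4568 lymph node and 6018 spleen cells, a cell held a mean of 6.53 member UMIs in lymph node (SD over cells 2.74) and 6.74 in spleen (SD 2.81). The shallower 252 and 525 cells were left out. The variance over cells was 1.15 and 1.17 times the mean, where pure counting gives 1. A cell without any member UMI was rare, 5 lymph node cells (0.109%, exact interval 0.0355% to 0.255%) and 7 spleen cells (0.116%, exact interval 0.0468% to 0.240%). Without thinning, the median was 11 member UMIs per cell in both libraries.

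Level and depth were related at the deep end. Cells were ordered by their UMIs and divided into eighths. In lymph node the first 7 eighths had 5280 to 5507 CPM, and the deepest, of cells with at least 4136 UMIs, had 6572 CPM. In spleen they had 5296 to 5712 CPM, and the deepest eighth, from 3957 UMIs, had 6512 CPM. The summed level of 17 cell cycle genes was high in the same eighth, at 2650 CPM in lymph node and 2428 CPM in spleen, against 611 to 742 CPM and 723 to 788 CPM in the others. The part of cycling cells and doublets in that step was not tested. Before the deepest eighth the Mrps sum also moved. In lymph node it was at 2084 CPM (interval 1980 to 2192) in the first and 1861 CPM (interval 1803 to 1920) in the seventh eighth. In spleen it was at 2044 CPM in the first, 2175 CPM in the fourth and 1945 CPM in the seventh. Since a cell with more UMIs also has a better chance of passing a gate, the summed ratio of each gate is also given with comparison cells weighted to match the gated ones in UMIs per cell.

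**Figure D2:**
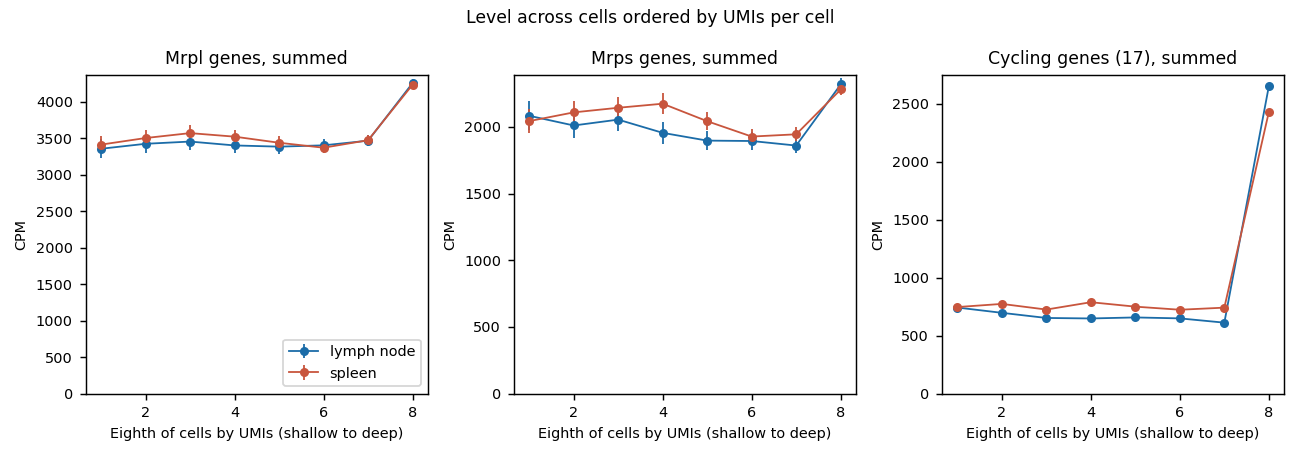
Summed level in CPM (linear axis from 0) of the Mrpl genes, the Mrps genes and 17 cycling genes in eighths of the cells from shallow (1) to deep (8), lymph node in blue and spleen in red. Bars are 95% intervals of counting error, drawn for the Mrpl and Mrps sums; the Mrps sum in lymph node is at 2084 CPM in the first and 1861 CPM in the seventh eighth, and all members together reach 6572 and 6512 CPM and the cycling genes 2650 and 2428 CPM in the deepest.

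Cells were next gated by at least 1 raw UMI of a marker and compared with cells holding none, within each library. Tnfrsf9 encodes 4-1BB, a receptor of recently activated T cells. Mitochondrial ribosomal protein transcripts were higher in cells with Tnfrsf9 in both libraries. Of the 9 gated comparisons, the 2 with Tnfrsf9 were those whose sums kept their direction in both libraries under every alternative tried. In lymph node 896 cells with Tnfrsf9 had 6610 CPM, against 5479 CPM in 3924 cells without it, a ratio of 1.21 (interval 1.19 to 1.23). In spleen 1134 cells with Tnfrsf9 had 6590 CPM, against 5574 CPM in 5409 cells without it, a ratio of 1.18 (interval 1.17 to 1.20). Weighted to equal UMIs per cell the ratios were 1.15 and 1.11. Without cells holding a UMI of Mki67, Top2a, Birc5, Ccna2, Ccnb1, Ccnb2, Cdk1, Ube2c or Nusap1 they were 1.14 and 1.18. These are part of the cell cycle genes summed above, so cells holding only UMIs of the others stayed in. The lowest and highest over all alternatives were 1.11 and 1.32 for lymph node, and 1.11 and 1.28 for spleen. Markers of other cells differed between the groups as well. The 13 B cell markers summed to 1162 CPM with Tnfrsf9 and 2208 CPM without it in lymph node, and to 1073 and 1847 CPM in spleen. The 7 erythroid markers summed to 131 and 397 CPM in lymph node and to 4.17 and 4.45 CPM in spleen, and the natural killer cell markers to 88.3 and 43.9 CPM and to 26.8 and 36.4 CPM. Without the cells holding other cell types' markers, as set above, the ratios were 1.13 and 1.11.

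The difference ran through most members. In lymph node 65 of 71 members had a ratio above 1, against 60.7% of all genes, and in spleen 62 of 71, against 60.9%. The median log2 ratio was 0.32 and 0.23, against 0.08 and 0.09 over all genes. It was a broad shift of small size, since 3 members in lymph node and 5 in spleen were past 1.5-fold higher, 4.23% and 7.04% of members, against 6.1% and 8.1% of genes. None was past 1.5-fold lower, against 2.58% and 3.19% of genes. In both libraries 59 members were higher, 83.1%, against 50.8% of all genes, and 3 were lower, 4.23%, against 29.2%. For 33 members, 46.5%, the interval lay above 1 in both libraries, against 24.1% of all genes.

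Set against cells with Ly6c1, a surface antigen of resting circulating T cells, the size was similar. Here 800 lymph node cells with Tnfrsf9 and no Ly6c1 had 6638 CPM, against 5504 CPM in 815 cells with Ly6c1 and neither Klrg1 nor Tnfrsf9 (ratio 1.21, interval 1.18 to 1.24). In spleen 1006 such cells had 6572 CPM, against 5411 CPM in 1229 cells with Ly6c1 (ratio 1.21, interval 1.19 to 1.24). At equal UMIs per cell the ratios were 1.14 and 1.15. Both subunits took part. In lymph node the Mrpl sum was 1.21 times higher (interval 1.18 to 1.25) and the Mrps sum 1.19 times (interval 1.15 to 1.24). In spleen these were 1.22 (interval 1.19 to 1.25) and 1.21 (interval 1.16 to 1.25). Members with a bacterial counterpart had ratios of 1.20 and 1.21, and those without one 1.22 and 1.21. Members above 1 numbered 64 in lymph node, against 64% of all genes, and 63 in spleen, against 68.5%. Past 1.5-fold higher were 8 and 13 members, 11.3% and 18.3%, against 14.1% and 17.4% of genes, and none was past it lower, against 4.68% and 4.44%.

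**Figure D3:**
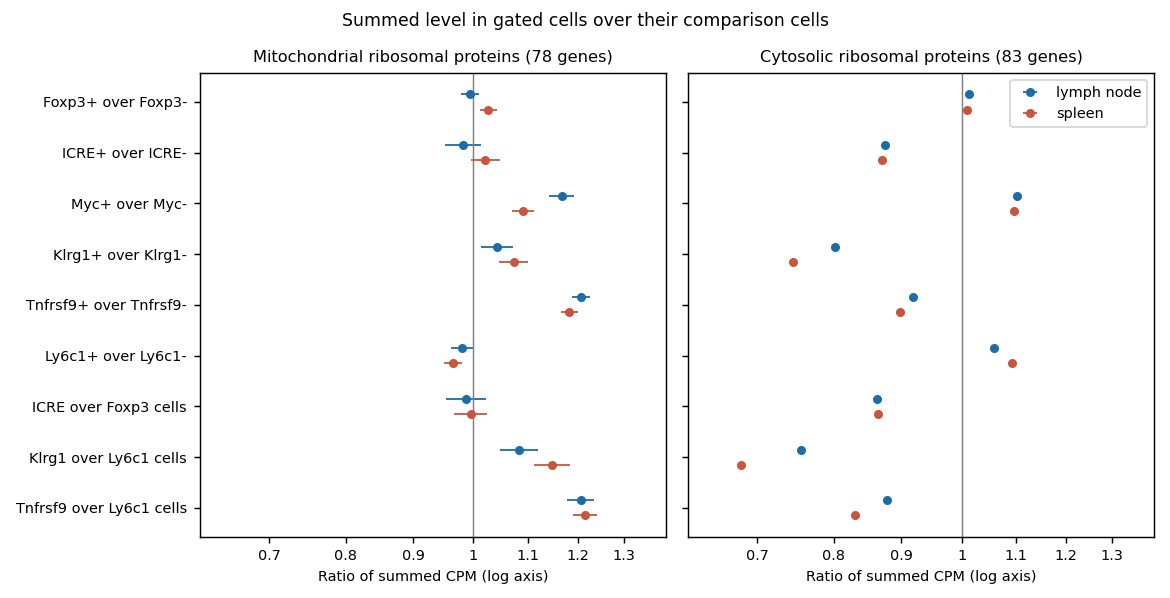
Ratio of the summed level (log axis) in gated cells over their comparison cells for the 78 mitochondrial ribosomal protein genes (left) and 83 cytosolic ribosomal protein genes (right), lymph node in blue and spleen in red, with bars for 95% intervals of counting error. Mitochondrial ribosomal proteins lie at 1.18 to 1.21 for both Tnfrsf9 comparisons, while cytosolic ones lie at 0.83 to 0.92 there.

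Cytosolic ribosomal proteins, of the ribosomes that make most cell protein, were lower in the same cells. In the comparison with Ly6c1 cells the 83 genes summed to 312136 CPM in lymph node cells with Tnfrsf9, against 355920 CPM in cells with Ly6c1 (ratio 0.877), and to 299275 CPM against 360448 CPM in spleen (ratio 0.830). These genes held 336137 CPM of all lymph node RNA and 329114 CPM of spleen RNA, so a change in them moves all other CPM values. With the total taken without cytosolic ribosomal protein and mitochondrially encoded genes, the ratios of mitochondrial ribosomal proteins were 1.13 in lymph node and 1.11 in spleen. With the median of ratios over genes, which moved all log2 ratios by -0.14 and -0.17, they were 1.09 and 1.08. Under these scalings cytosolic ribosomal proteins stayed lower, at 0.736 to 0.820. The messages that these ribosomes translate, the 13 mitochondrially encoded mRNAs, summed to ratios of 1.03 and 1.06. Other values moved along with the gate. The 17 cycling genes summed to 1862 CPM in lymph node cells with Tnfrsf9, against 987 CPM in cells with Ly6c1, and to 1864 CPM against 803 CPM in spleen. The 8 natural killer cell markers summed to 90.6 against 12.8 CPM and to 28.0 against 1.46 CPM, with 0 and 3 of the 8 at 0 in lymph node and 2 and 5 in spleen. Without cells holding a UMI of the cycling genes named above the ratios were 1.14 and 1.20. Without cells holding other cell types' markers they were 1.10 and 1.13.

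Other genes of mitochondrial translation were taken from lists of names. Their ratios are those against Ly6c1 cells, a comparison that put 64% of all genes above 1 for lymph node and 68.5% for spleen. The lists are short, and no count of ratios above 1 was tested against these shares. Of 6 further genes listed for the mitochondrial ribosome under other names, 5 had at least 20 CPM, and all 5 had ratios above 1 in cells with Tnfrsf9 in both libraries (summed ratio against Ly6c1 cells 1.21, interval 1.12 to 1.31, in lymph node and 1.24, interval 1.16 to 1.32, in spleen). This count and sum include Slirp, which is described below and is not a ribosomal protein by that description. Aurkaip1, of the small subunit, had 191 CPM with Tnfrsf9 and 147 CPM with Ly6c1 in lymph node (ratio 1.30, interval 1.12 to 1.51), and 173 and 158 CPM in spleen (ratio 1.10, interval 0.967 to 1.25). Chchd1, also of the small subunit, had ratios of 1.07 and 1.12, with both intervals covering 1. Gadd45gip1, of the large subunit, had 1.12 (interval 0.934 to 1.35) and 1.36 (interval 1.17 to 1.60). Of 8 genes of mitochondrial transcription, RNA stability and DNA replication 3 had at least 20 CPM, and 2 had ratios above 1 in both libraries. Slirp, an RNA-binding protein that stabilises mitochondrial mRNAs and is in both of these lists, was at 108 CPM against 72.6 CPM (ratio 1.49, interval 1.21 to 1.84) and at 111 against 73.8 CPM (ratio 1.51, interval 1.27 to 1.80). Tfam, which packages mitochondrial DNA, had ratios of 1.49 (interval 1.15 to 1.94) and 1.14 (interval 0.934 to 1.40), and Polg, the mitochondrial DNA polymerase, 0.904 and 0.938, with both intervals covering 1. Of 20 mitochondrial aminoacyl-tRNA synthetases and related enzymes 3 reached the minimum, with 2 ratios above 1 in lymph node and 3 in spleen, and a single interval of the 6 lay off 1, that of Fars2 in spleen (ratio 2.51, interval 1.75 to 3.67). Of the translation factors 3 of 11 had at least 20 CPM, and all 3 had ratios above 1. Tufm, the elongation factor that brings aminoacyl-tRNA, was at 45.8 against 31.0 CPM (ratio 1.48, interval 1.08 to 2.06) in lymph node and at 39.7 against 29.9 CPM (ratio 1.33, interval 1.0003 to 1.77) in spleen. Mtif2, the initiation factor, had ratios of 1.42 and 1.45, and Tsfm, which recharges Tufm, 1.26 and 1.37. Assembly factors were mixed, with 5 of 8 higher in lymph node and 4 of 8 in spleen, no more than the share of all genes. C1qbp, a matrix protein needed for mitochondrial translation, was higher, at 136 against 80.1 CPM (ratio 1.70, interval 1.40 to 2.07) in lymph node and at 149 against 104 CPM (ratio 1.43, interval 1.23 to 1.66) in spleen. Dhx30, a helicase of ribosome assembly, had ratios of 0.748 and 0.995.

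Among the members, Mrps6 differed most by Tnfrsf9. It is the counterpart of bacterial S6 at the platform of the small subunit. In lymph node it was at 100.4 CPM in cells with Tnfrsf9 and at 45.1 CPM in cells without (ratio 2.23, interval 1.92 to 2.58), and in spleen at 92.5 and 41.4 CPM (ratio 2.23, interval 1.95 to 2.56). Against Ly6c1 cells it was at 107.5 and 46.4 CPM in lymph node (ratio 2.32, interval 1.82 to 2.97) and at 92.7 and 23.0 CPM in spleen (ratio 4.03, interval 3.07 to 5.38). The lowest value in these groups was thus that of spleen cells with Ly6c1. Over the alternatives the last 2 ratios lay between 1.74 and 4.53 and between 3.06 and 5.72. Cells with Ly6c1 had less Mrps6 than cells without it, at 46.7 and 60.9 CPM in lymph node and at 34.2 and 58.0 CPM in spleen. Mrps6 (chromosome 16, 92058270 to 92112227, plus strand of GRCm38) spans Slc5a3, an inositol transporter gene on the same strand, so reads in the shared stretch could count for either gene. Slc5a3 itself was at 5.41 CPM with Tnfrsf9 and 4.27 CPM with Ly6c1 in lymph node, and at 6.02 and 2.92 CPM in spleen. How Mrps6 reads divide between these genes was not tested.

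Mrpl12, the counterpart of the bacterial stalk protein that recruits translation factors, and in human cells also a partner of mitochondrial RNA polymerase, was the next. It was at 144 and 86.7 CPM in lymph node cells with and without Tnfrsf9 (ratio 1.66, interval 1.48 to 1.86) and at 151 and 90.3 CPM in spleen (ratio 1.67, interval 1.51 to 1.85). Mrpl54, a large subunit addition of mitochondria, was at 142 CPM with Tnfrsf9 and 88.1 CPM with Ly6c1 in lymph node (ratio 1.61, interval 1.34 to 1.94) and at 143 and 87.3 CPM in spleen (ratio 1.64, interval 1.40 to 1.93). Mrpl52, the most abundant member, had ratios of 1.44 and 1.34 in the same comparison, and Mrps36 1.48 and 1.61. Mrpl37, below the level minimum, was at 26.5 against 18.4 CPM by Tnfrsf9 in lymph node (ratio 1.44, interval 1.10 to 1.88) and at 26.3 against 17.4 CPM in spleen (ratio 1.51, interval 1.18 to 1.92), although at 1200 UMIs per cell its lymph node ratio was 0.978. Of the Mrps18 paralogs, Mrps18b had Tnfrsf9 ratios of 1.52 and 1.43, Mrps18a 1.37 and 1.13, and Mrps18c 1.17 and 0.985.

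A few members went the other way. Mrpl58, a peptide release enzyme built into the large subunit that rescues stalled ribosomes, was at 95.3 CPM in cells with Tnfrsf9 and 109.8 CPM in cells without it in lymph node (ratio 0.868, interval 0.761 to 0.988). In spleen it was at 95.4 and 109.4 CPM (ratio 0.872, interval 0.775 to 0.979). Mrpl30 was at 159 and 175 CPM (ratio 0.911, interval 0.823 to 1.01) and at 171 and 188 CPM (ratio 0.913, interval 0.837 to 0.996). Against Ly6c1 cells Mrpl30 was at 159 and 188.5 CPM (ratio 0.843, interval 0.731 to 0.972) and at 168 and 219 CPM (ratio 0.767, interval 0.682 to 0.862). Mrpl30 was also among the members highest by Ly6c1 itself, with ratios of 1.09 and 1.21 over cells without that transcript.

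**Figure D4:**
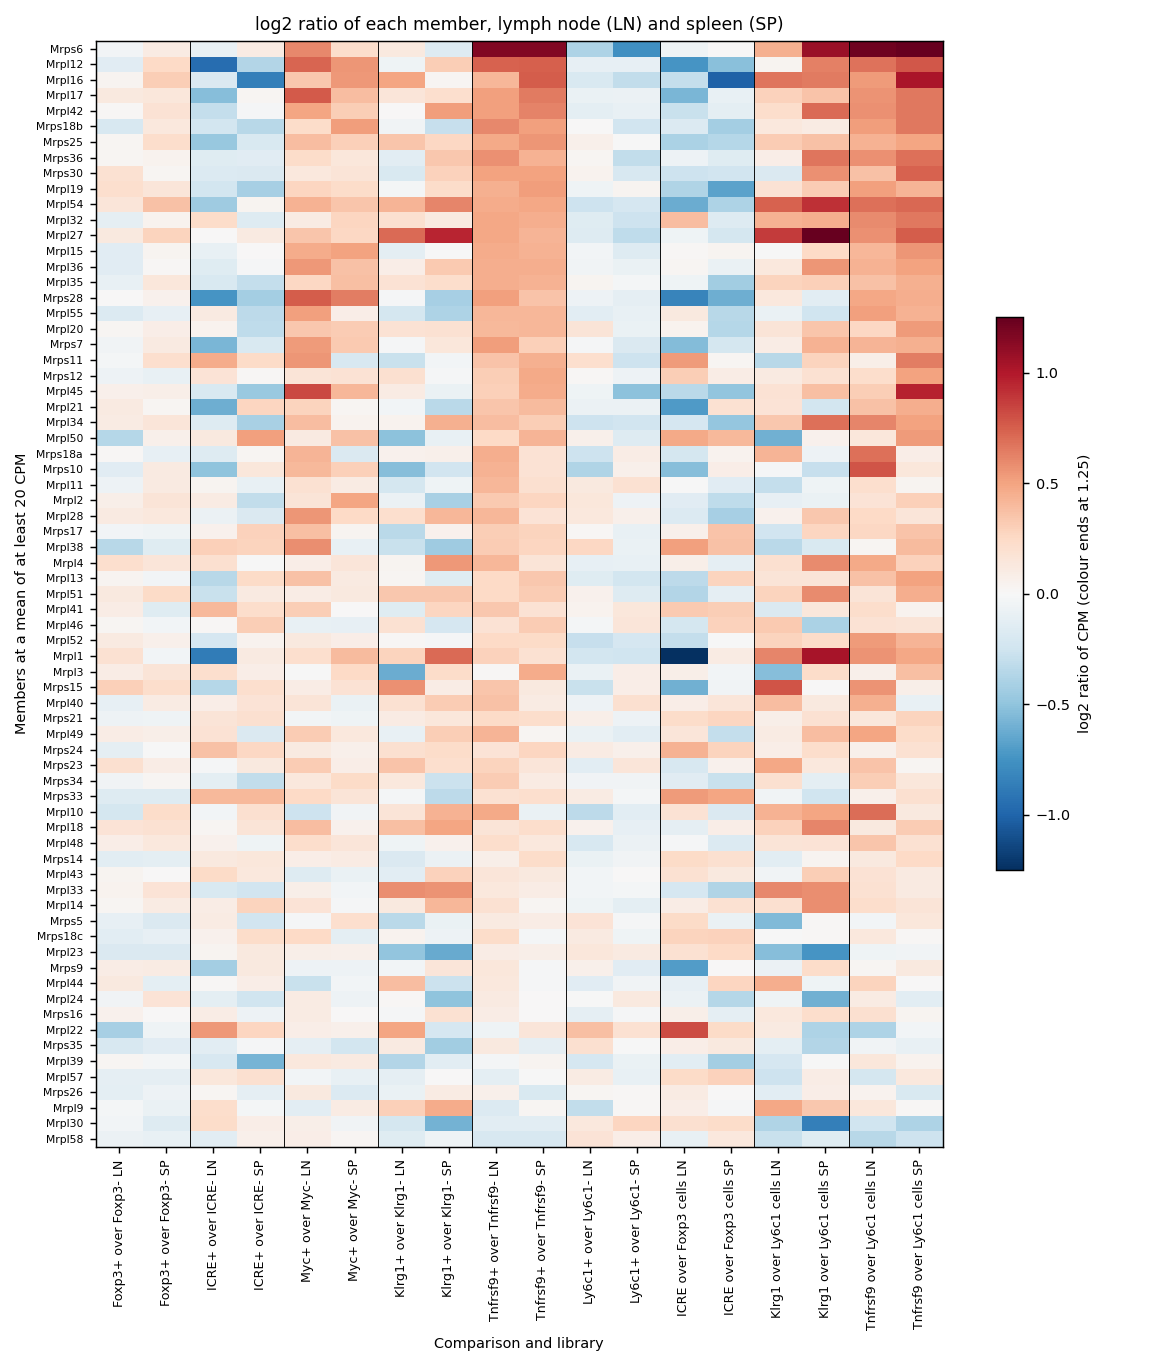
Colour gives the log2 ratio of CPM in gated over comparison cells (red higher, blue lower) for the 71 members that reach the minimum of 20 CPM on average, in 9 comparisons, each in lymph node (LN) and spleen (SP), with members ordered by their Tnfrsf9 ratios. The Tnfrsf9 columns are mostly red with Mrps6 and Mrpl12 at the top and Mrpl30 and Mrpl58 at the bottom; in the other columns colours are mixed, and deep colours of members with few UMIs are uncertain.

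Myc drives growth and is the floxed gene. Which exons of Myc are floxed is not stated, so a Myc UMI does not show an undeleted gene, and its absence in a shallow cell does not show a deletion. In lymph node 294 cells with a Myc UMI had a summed ratio of 1.17 over 4526 cells without (interval 1.14 to 1.19). In spleen 460 cells had 1.09 over 6083 cells (interval 1.07 to 1.11). Members above 1 numbered 60 and 53 of 71, against 40.1% and 40% of all genes, and the median log2 ratio was 0.21 and 0.12, against -0.09 and -0.07. Past 1.5-fold higher were 5 members in lymph node and 1 in spleen, 7.04% and 1.41%, against 5.19% and 3.13% of genes. None was past it lower in either library, against 8.76% and 4.14%. These ratios moved with the cells compared. Weighted to equal UMIs per cell they were 1.04 and 1.03, and without the 6% deepest cells 0.997 and 0.957. Without cells holding other cell types' markers they were 0.962 and 0.976. Cycling genes summed to 2065 CPM with Myc and 1209 CPM without in lymph node, and to 1345 and 1256 CPM in spleen. The T cell markers summed to 7838 CPM with Myc and 9991 CPM without in lymph node, and to 8140 and 9985 CPM in spleen, and the B cell markers to 2427 and 1900 CPM and to 1810 and 1651 CPM. The part of these cells in the Myc ratios was not tested.

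Single members in cells with Myc were led by Mrps28, Mrpl37 and Mrpl12. Mrps28, the counterpart of bacterial S1, was at 56.0 and 33.2 CPM in lymph node (ratio 1.69, interval 1.31 to 2.15) and at 58.3 and 37.5 CPM in spleen (ratio 1.55, interval 1.25 to 1.91). Mrpl12 was at 155 and 93.9 CPM (ratio 1.65, interval 1.42 to 1.91) and at 146 and 99.1 CPM (ratio 1.47, interval 1.29 to 1.68). Weighted to equal UMIs per cell, Mrpl12 ratios were 1.24 and 1.18. Without cells holding other cell types' markers its lymph node ratio was 0.975. Mrpl37 was at 29.1 and 19.2 CPM (ratio 1.51, interval 1.06 to 2.12) and at 29.1 and 18.3 CPM (ratio 1.60, interval 1.17 to 2.14). Without the 6% deepest cells its ratios were 0.977 and 0.942. Of members lower in both libraries, Mrps35, Mrpl46 and Mrpl43 led, at 0.850 to 0.946, and each of their intervals covered 1.

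ICRE is a sequence added to the gene table by the authors. No source used gives its letters, so reading it as a mark of the Cre-bearing Foxp3 allele is an assumption. Cells with ICRE and no Foxp3 UMI were set against cells with Foxp3 and no ICRE UMI, and these groups differed in other markers too. In lymph node 10 markers of resting cells summed to 3970 CPM with ICRE and 1496 CPM with Foxp3, and 13 of effector or activated cells to 481 and 1873 CPM. In spleen these were 3773 and 1786 CPM, and 439 and 2223 CPM. The 10 Treg markers, Foxp3 among them, summed to 3066 and 4145 CPM in lymph node and to 3476 and 4541 CPM in spleen. Whether cell state or allele goes with any value below was not tested. Scaled to all UMIs, the summed members did not stand apart between them. In lymph node 354 cells with ICRE gave a ratio of 0.988 (interval 0.953 to 1.02) over 982 cells with Foxp3, and in spleen 505 cells gave 0.995 (interval 0.966 to 1.02) over 1195 cells. Cells with ICRE were shallower, with median depths in lymph node of 1606 UMIs against 2860, and in spleen of 1635 UMIs against 2941. Weighted to equal UMIs per cell, the ratios were 1.02 and 1.08. With the total taken without ribosomal and mitochondrially encoded genes they were 0.916 and 0.925, below both intervals. By name the Mrpl sum had ratios of 0.950 (interval 0.908 to 0.993) and 0.959 (interval 0.925 to 0.995) and the Mrps sum 1.06 (interval 0.996 to 1.12) and 1.06 (interval 1.01 to 1.11). At equal UMIs per cell these were 0.985 and 1.04 for Mrpl, which turns its direction in spleen, and 1.08 and 1.14 for Mrps. The other total moved all log2 ratios by -0.108 and -0.106. The Mrps log2 ratios were 0.0786 and 0.0842, so the Mrps sum turns its direction in both libraries under that total. Of the 71 members 21 were higher in both libraries, 29.6%, against 44.1% of all genes, and 27 lower in both, 38%, against 27.4%. Past 1.5-fold lower were 7 members in lymph node and 3 in spleen, 9.86% and 4.23%, against 8.78% and 8.24% of genes. Past it higher were 1 and 0 members, against 11.6% and 11% of genes. Members above 1 numbered 32 and 33, against 58.3% and 58.4%. Over the same cells cytosolic ribosomal proteins had ratios of 0.863 and 0.864, with 8 of 80 genes higher in each library, and mitochondrially encoded mRNAs 0.908 and 0.869. Neither was weighted to equal UMIs per cell. By eighths of depth, cytosolic ribosomal proteins in lymph node had 274925 CPM in the shallowest, 365145 CPM in the seventh and 344224 CPM in the deepest. In spleen these were 265583, 362003 and 340942 CPM. The part of depth in these ratios was not tested.

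Mrpl12 led the members that were lower with ICRE in both libraries, by both comparisons. In lymph node cells with ICRE it was at 57.2 CPM, against 95.1 CPM in cells with Foxp3 (ratio 0.601, interval 0.416 to 0.846). In spleen it was at 82.8 and 119.3 CPM (ratio 0.694, interval 0.540 to 0.882). Over cells without ICRE it was at 53.4 and 103.3 CPM in lymph node (ratio 0.517, interval 0.366 to 0.711) and at 82.3 and 105.9 CPM in spleen (ratio 0.777, interval 0.621 to 0.961). Its ICRE over Foxp3 ratio stayed below 1 in every alternative, at 0.558 to 0.746 in lymph node and at 0.549 to 0.823 in spleen. These include equal UMIs per cell (0.583 and 0.774) and no cell with Tnfrsf9 or Klrg1 (0.746 and 0.742). Without cells holding a UMI of the cycling genes named above they were 0.683 and 0.768. Cycling genes moved the same way, with 698 CPM in lymph node cells with ICRE against 1695 CPM in cells with Foxp3, and 742 against 1945 CPM in spleen. In lymph node the B cell markers had 1754 CPM with ICRE and 1291 CPM with Foxp3. In spleen they had 727 and 1464 CPM. C1qbp also was lower, at 60.3 against 93.1 CPM (ratio 0.648, interval 0.452 to 0.904) and at 74.3 against 112 CPM (ratio 0.661, interval 0.507 to 0.850). Mrpl54 was at 78.8 and 121 CPM (ratio 0.653, interval 0.478 to 0.874) and at 102 and 133 CPM (ratio 0.767, interval 0.611 to 0.953), and its spleen ratio was 1.05 without cells holding at least 5 UMIs of other cell types' markers.

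Mrps33 ran opposite to Mrpl12. It is a small subunit protein that bacteria lack. In lymph node it was at 196 CPM in cells with ICRE and 136 CPM in cells with Foxp3 (ratio 1.44, interval 1.18 to 1.76), and in spleen at 189 and 134 CPM (ratio 1.41, interval 1.18 to 1.67). Over cells without ICRE its ratios were 1.32 (interval 1.10 to 1.57) and 1.32 (interval 1.14 to 1.52). Cells with Foxp3 had less Mrps33 than cells without it, with ratios of 0.895 (interval 0.807 to 0.993) and 0.894 (interval 0.815 to 0.979). The ICRE over Foxp3 ratio stayed above 1 in every alternative, at 1.34 to 1.58 in lymph node and at 1.15 to 1.66 in spleen.

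**Figure D5:**
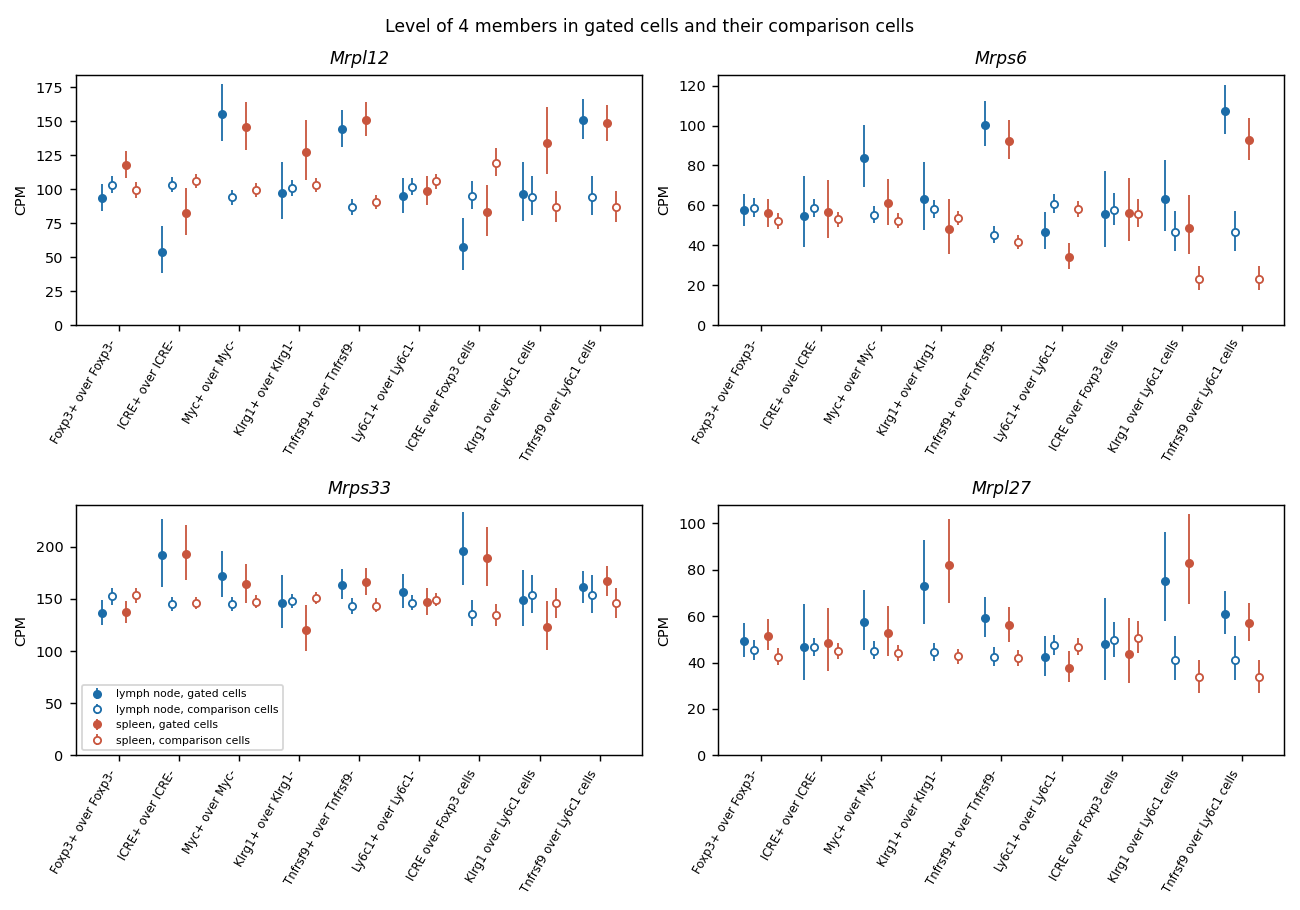
Level in CPM (linear axes from 0) of Mrpl12, Mrps6, Mrps33 and Mrpl27 in gated cells (filled) and their comparison cells (open) of 9 comparisons, lymph node in blue and spleen in red, with bars for 95% intervals of counting error. Mrpl12 is low with ICRE and high with Myc and Tnfrsf9, Mrps6 is high with Tnfrsf9, Mrps33 is high with ICRE, and Mrpl27 is high with Klrg1. Without cells holding other cell types' markers, not drawn here, the lymph node ratio of Mrpl12 for Myc was 0.975. The Mrpl27 ratios for Klrg1 over Ly6c1 cells were then 0.955 in lymph node and 0.687 in spleen.

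The Foxp3 and ICRE gates over all other cells gave sums near equality, and their directions differed between libraries. With Foxp3 the ratio was 0.994 (interval 0.978 to 1.01) in 1007 lymph node cells and 1.03 (interval 1.01 to 1.04) in 1239 spleen cells, and 0.945 and 0.955 at equal UMIs per cell. With ICRE it was 0.982 (interval 0.951 to 1.01) in 379 lymph node cells and 1.02 (interval 0.995 to 1.05) in 549 spleen cells, and 1.01 and 1.04 at equal UMIs per cell. The ICRE ratios were 0.917 and 0.951 with the total taken without ribosomal and mitochondrially encoded genes. With Foxp3, 37 members in lymph node and 46 in spleen had a ratio above 1, against 46.4% and 47.6% of genes. None was past 1.5-fold higher, against 1.47% and 3.03%, or lower, against 1.59% and 1.74%. With ICRE, 35 and 39 members were above 1, against 59% and 61.6% of genes. Past 1.5-fold lower were 4 and 1 members, against 6.78% and 3.88%, and none was past it higher, against 6.44% and 3.67%. Mrps15, a small subunit protein, was higher with Foxp3, at 82.0 and 66.8 CPM in lymph node (ratio 1.23, interval 1.07 to 1.41) and at 79.9 and 68.6 CPM in spleen (ratio 1.17, interval 1.03 to 1.32). Mrpl23 was lower with Foxp3, with a ratio of 0.881 in both libraries (intervals 0.801 to 0.968 and 0.812 to 0.954), although at 1200 UMIs per cell its lymph node ratio was 1.04.

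Klrg1 marks effector Treg cells. The 223 lymph node and 229 spleen cells with Klrg1 had summed ratios of 1.04 (interval 1.01 to 1.07) and 1.07 (interval 1.05 to 1.10) over cells without it. These are not read as higher, since the ratios were 0.941 and 0.944 with the total taken without ribosomal and mitochondrially encoded genes, and 0.966 and 0.960 at equal UMIs per cell. Members above 1 numbered 38 and 41, against 57.6% and 57.3% of genes. Past 1.5-fold higher were 1 and 3 members, against 9.35% and 14.3%, and past it lower 1 and 2, against 6.82% and 8.92%. Against Ly6c1 cells the summed ratios were 1.08 and 1.15, and 0.950 and 0.965 with that other total, and 1.01 and 1.05 at equal UMIs per cell. Cycling genes summed to 2218 CPM with Klrg1 and 987 CPM with Ly6c1 in lymph node, and to 3523 and 803 CPM in spleen. B cell markers summed to 2094 and 1140 CPM in lymph node and to 2019 and 784 CPM in spleen. The part of such cells was not tested. In that comparison 45 and 52 members were above 1, against 62.2% and 64.5% of genes. Past 1.5-fold higher were 6 and 12, against 18.2% and 23.9%, and lower 1 and 3, against 7.67% and 9.39%. Cytosolic ribosomal proteins were far lower in the same comparison, with ratios of 0.756 and 0.680.

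Within that sum members differed in direction. Mrpl27, the counterpart of bacterial L27 beside the peptidyl transferase centre, was at 75.1 CPM with Klrg1 and 41.1 CPM with Ly6c1 in lymph node (ratio 1.83, interval 1.29 to 2.58), and at 83.1 and 33.6 CPM in spleen (ratio 2.47, interval 1.80 to 3.39). Mrpl54 was at 147 and 88.1 CPM (ratio 1.66, interval 1.31 to 2.11) and at 164 and 87.3 CPM (ratio 1.88, interval 1.52 to 2.32). Mrpl33, a small protein of the large subunit, had ratios of 1.4996 (interval 1.32 to 1.70) and 1.47 (interval 1.30 to 1.66) over cells without Klrg1. Mrpl23 was lower, at 130 and 187 CPM (ratio 0.693, interval 0.554 to 0.862) and at 124 and 207 CPM (ratio 0.599, interval 0.485 to 0.735). Mrpl30 was at 145 and 188.5 CPM (ratio 0.772, interval 0.623 to 0.951) and at 121 and 219 CPM (ratio 0.551, interval 0.445 to 0.677). Against Ly6c1 cells these values rest on 63 to 148 UMIs per member in the cells with Klrg1. Without cells holding other cell types' markers, the Mrpl27 ratios were 0.955 and 0.687, the Mrpl30 ratios 1.46 and 1.05, and the Mrpl54 ratios 1.51 and 0.637.

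Cells with Ly6c1, 923 in lymph node and 1373 in spleen, had summed ratios of 0.981 (interval 0.962 to 0.999) and 0.964 (interval 0.949 to 0.980) over cells without it, 1.01 and 1.01 with the total taken without ribosomal and mitochondrially encoded genes, and 0.993 and 0.976 at equal UMIs per cell. Members above 1 numbered 30 in lymph node and 20 in spleen, against 37.2% and 30% of genes, and 9 were above 1 in both libraries, 12.7%, against 17.8% of genes, and 30 below in both, 42.3%, against 50.6%. None was past 1.5-fold higher, against 0.456% and 0.357%, and 0 and 1 were past it lower, against 3.61% and 4.36%. Besides Mrps6, Mrpl52 was lower, at 293 and 359 CPM in lymph node (ratio 0.817, interval 0.751 to 0.887) and at 300.3 and 348 CPM in spleen (ratio 0.862, interval 0.805 to 0.924). Mrpl22, at the tunnel of the large subunit, was higher, at 49.8 and 38.5 CPM (ratio 1.29, interval 1.04 to 1.60) and at 46.1 and 40.4 CPM (ratio 1.14, interval 0.948 to 1.37).

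The 78 genes lie on 17 chromosomes, with 11 on chromosome 11. A start of a protein-coding gene on the opposite strand lay within 1000 bases of the start of 33 members, 42.3%, against 19.2% of 4991 protein-coding genes with at least 20 CPM and 10.8% of 21974 protein-coding genes. Mrpl46 (chromosome 7, 78775236 to 78783531, minus strand) and Mrps11 (78783119 to 78792989, plus strand) face each other. With a gene on the same strand 5 members overlapped, and with a gene on the other strand 30. No source used states whether counting was by strand, so levels of overlapping members may hold reads of the partner.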

How the data were processed

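Single-cell RNA was counted with the 10x 3' V2 kit, per the labels' protocols, in 1 lymph node and 1 spleen library. The authors deposited raw UMI counts for each gene in each barcode. Cell Ranger 3.0.1 and mm10 are named, per the submitters' processing notes. The lowest total of any barcode was 500 UMIs. No source used gives the animal or YFP status of a cell. Gene positions are those of GENCODE M21 on GRCm38, promoters those of RefSeq on GRCm38.p6.

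The members, gene lists and markers were chosen with earlier results of these data known, so no list or pattern is independent support. Barcodes under 500 genes or over 10% mitochondrial UMIs were left out, 259 in lymph node and 297 in spleen. No doublet caller was run, and 1 alternative left out the 6% deepest cells of each library. A cell passed a gate with at least 1 raw UMI. Counts were summed over the cells of a group and scaled to CPM. CPM have exact Poisson intervals, ratios exact conditional intervals and shares exact binomial (Clopper-Pearson) intervals, all 95% and of counting error only (Python 3.11.15, numpy 2.4.6, scipy 1.17.1, pandas 2.3.3). Cells are not replicates, so no p-value was made. Counts of members and of all genes used genes with a mean of at least 20 CPM over both libraries. For equal UMIs per cell, comparison cells were weighted in 10 bins of depth to the gated cells. The 2 comparisons against Ly6c1 cells share those cells.

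Named members were the 10 highest, up to 6 per side between tissues with the interval farthest from 1 and at least 100 UMIs, up to 3 per side in each gate with the same direction in both libraries and at least 20 UMIs in the gated cells, and Mrps18a, Mrps18b, Mrps18c, Mrpl12 and Mrps36. The gated ratios of Mrpl52, and the 4 members whose promoters or levels are shown alone, were chosen after their values were seen. From lists of other mitochondrial translation genes up to 3 by CPM were named. On simulated Poisson counts 95.2% of 5048 intervals between tissues covered the true ratio, as did 95.9% in the lymph node comparison of Tnfrsf9 with Ly6c1 cells. The intervals are built for such counts, so this checks only how they were computed. Variation between cells, animals or libraries was not simulated.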

Additional observations from a re-analysis of the deposited data

Results flagged for a closer look

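In 2 gates the summed members lay on opposite sides of equality in the 2 libraries. Lymph node cells with Foxp3 gave a ratio of 0.994 and spleen cells 1.03. Lymph node cells with ICRE gave 0.982 and spleen cells 1.02. In both gates the difference between the libraries was not tested, since each tissue has 1 library. Both pairs were on 1 side at equal UMIs per cell, 0.945 and 0.955 for Foxp3 and 1.01 and 1.04 for ICRE.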

How the results depend on the processing

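No paired analysis was possible because each tissue has 1 library and cells carry no replicate number. Values below are lymph node first and spleen second, for the summed members unless a gene is named. Each list gives only sums that moved beyond their counting interval or changed direction. A library or comparison missing from a list stayed within its interval, or the alternative was not run for it. Of 272 alternative values of the summed members and the tissue median, 129 stayed within the counting interval, 112 moved beyond it, and 31 changed direction, which was counted only for the 14 sums whose own interval excluded 1 (193 values). Of 72 values of the 5 sums whose interval covered 1, a further 31 lay on the other side of 1. With the total taken without mitochondrially encoded and cytosolic ribosomal protein genes, ratios were 1.002 between tissues, 0.917 and 0.951 for ICRE, 1.23 and 1.15 for Myc, 0.941 and 0.944 for Klrg1, 1.15 and 1.12 for Tnfrsf9, 1.01 and 1.01 for Ly6c1, 0.916 and 0.925 for ICRE over Foxp3, 0.950 and 0.965 for Klrg1 over Ly6c1 and 1.13 and 1.11 for Tnfrsf9 over Ly6c1. With the median of ratios as the scale, ratios were 1.004 between tissues, 0.934 and 0.958 for ICRE, 1.22 and 1.13 for Myc, 0.987 and 0.992 for Klrg1, 1.13 and 1.11 for Tnfrsf9, 1.02 and 1.02 for Ly6c1, 0.936 and 0.937 for ICRE over Foxp3, 0.978 and 0.996 for Klrg1 over Ly6c1 and 1.09 and 1.08 for Tnfrsf9 over Ly6c1. With equal weight for each cell, ratios were 0.976 between tissues, 0.991 in spleen for Foxp3, 1.04 in lymph node for ICRE, 1.04 and 1.02 for Myc, 1.05 in spleen for Klrg1, 1.12 and 1.13 for Tnfrsf9, 1.001 in lymph node for Ly6c1, 1.05 and 1.05 for ICRE over Foxp3, 1.02 and 1.08 for Klrg1 over Ly6c1 and 1.11 and 1.15 for Tnfrsf9 over Ly6c1. Without cells holding UMIs of other cell types' markers, as set above, which left 1413 and 2205 cells, ratios were 0.968 between tissues, 0.955 and 0.948 for Foxp3, 1.03 and 1.06 for ICRE, 0.962 and 0.976 for Myc, 0.974 and 1.10 for Klrg1, 1.13 and 1.11 for Tnfrsf9, 1.01 and 0.980 for Ly6c1, 1.07 and 1.11 for ICRE over Foxp3, 0.996 in lymph node for Klrg1 over Ly6c1 and 1.10 and 1.13 for Tnfrsf9 over Ly6c1. Without the 6% deepest cells, ratios were 0.977 between tissues, 0.986 in spleen for Foxp3, 1.05 and 1.05 for ICRE, 0.997 and 0.957 for Myc, 1.03 in spleen for Klrg1, 1.11 and 1.11 for Tnfrsf9, 1.07 and 1.06 for ICRE over Foxp3, 1.07 in spleen for Klrg1 over Ly6c1 and 1.11 and 1.13 for Tnfrsf9 over Ly6c1. Without cells holding at least 5 such UMIs, ratios were 0.970 between tissues, 0.941 and 0.959 for Foxp3, 1.04 in lymph node for ICRE, 1.03 in lymph node for Myc, 1.01 in spleen for Klrg1, 1.12 in lymph node for Tnfrsf9, 1.09 and 1.08 for ICRE over Foxp3, 1.07 in spleen for Klrg1 over Ly6c1 and 1.13 in lymph node for Tnfrsf9 over Ly6c1. At 1200 UMIs per cell, ratios were 0.969 between tissues, 0.985 in spleen for Foxp3, 1.04 and 1.05 for ICRE, 1.04 and 1.01 for Myc, 1.09 and 1.04 for Klrg1, 1.13 and 1.15 for Tnfrsf9, 1.04 and 1.06 for ICRE over Foxp3, 1.07 in spleen for Klrg1 over Ly6c1 and 1.13 and 1.16 for Tnfrsf9 over Ly6c1. Without cells holding a UMI of the cycling genes named above, ratios were 0.972 and 0.979 for Foxp3, 1.04 in lymph node for ICRE, 1.09 and 1.06 for Myc, 1.14 in lymph node for Tnfrsf9, 1.06 and 1.05 for ICRE over Foxp3, 1.04 in lymph node for Klrg1 over Ly6c1 and 1.14 in lymph node for Tnfrsf9 over Ly6c1. With comparison cells weighted to equal UMIs per cell, ratios were 0.945 and 0.955 for Foxp3, 1.01 in lymph node for ICRE, 1.04 and 1.03 for Myc, 0.966 and 0.960 for Klrg1, 1.15 and 1.11 for Tnfrsf9, 1.08 in spleen for ICRE over Foxp3, 1.01 and 1.05 for Klrg1 over Ly6c1 and 1.14 and 1.15 for Tnfrsf9 over Ly6c1. With a gate of at least 2 UMIs, ratios were 1.02 in lymph node for Foxp3, 1.05 in lymph node for ICRE, 1.32 and 1.23 for Myc, 1.11 in spleen for Klrg1, 1.32 and 1.28 for Tnfrsf9, 0.923 in spleen for Ly6c1, 1.19 in spleen for Klrg1 over Ly6c1 and 1.31 and 1.32 for Tnfrsf9 over Ly6c1. Without cells holding Tnfrsf9 or Klrg1, the ratio was 1.04 in lymph node for ICRE over Foxp3. Of 1614 alternative values of named members, 1030 belonged to 81 ratios whose interval excluded 1, and 25 of these changed direction. The other 584 belonged to 45 ratios whose interval covered 1, and 54 of them lay on the other side of 1. Without cells holding other cell types' markers, as set above, the 25 with a changed direction included Mrps5 between tissues (1.004), Mrpl12 for Myc in lymph node (0.975), Mrpl34 for Ly6c1 (1.08 and 1.15), Mrpl54 in spleen for ICRE over Foxp3 (1.10), Mrpl27 (0.681), Mrpl54 (0.577), Mrpl23 (1.06) and Mrpl30 (1.19) for Klrg1 in spleen, and for Klrg1 over Ly6c1 Mrpl27 (0.955 and 0.687), Mrpl30 (1.46 and 1.05) and Mrpl54 in spleen (0.637). Without the 6% deepest cells they were Mrps27 for Foxp3 in spleen (0.970) and Mrpl37 for Myc (0.977 and 0.942). At 1200 UMIs per cell they were Mrps27 for Foxp3 in spleen (0.878), Mrpl23 for Foxp3 in lymph node (1.04), Mrpl37 in lymph node for Myc (0.980) and Tnfrsf9 (0.978), and Mrpl34 for Ly6c1 in spleen (1.02). At equal UMIs per cell they were Mrpl12 in spleen for Foxp3 (0.903) and Klrg1 (0.886). Without cells holding at least 5 UMIs of other markers it was Mrpl54 in spleen for ICRE over Foxp3 (1.05). The cause of each change was not tested. The alternatives without cells holding the named cycling genes, without cells holding at least 5 UMIs of other markers, without shared barcodes and without Tnfrsf9 or Klrg1 cells were chosen after seeing the data. Taking all deposited barcodes, stricter cell filters, the sum without Mrpl52, or leaving out the 45 shared barcodes moved no summed value beyond its counting interval. Gated groups hold 208 to 1373 cells, so differences of single members below about 1.5-fold are often within counting error, most of all for ICRE. In Poisson counts simulated at 1.5-fold for ICRE over Foxp3, 54.5% of lymph node and 73.5% of spleen genes were recovered.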
